A study of Mus musculus with 8 samples.

Results

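The 49 genes described here encode the extracellular matrix of spleen stroma: fibrillar and basement membrane collagens, collagens VI and XIV, laminins and nidogens, proteoglycans, elastic fibre proteins, tenascins, adhesive glycoproteins, and the enzymes and inhibitors that remodel them. They were chosen by name as matrix genes known from stroma, out of 17738 gene symbols, at a time when earlier results of these data were known. Each is represented by its transcript of the highest mean level. All 49 had a row, and 46 passed a minimum mean of 0.5 FPKM over the 8 spleens and were tested. FPKM are fragments per kilobase of transcript per M mapped, a level that is corrected for length and depth. The libraries came from whole spleens, each of 1 male C57BL/6 mouse that was 8 to 12 weeks old. There were 4 wild-type and 4 TTPΔARE mice, and no treatment is named for either group. Tristetraprolin (TTP), the product of Zfp36, binds AU-rich elements in mRNAs and speeds their decay. The TTPΔARE allele lacks the AU-rich element of the Zfp36 mRNA itself, and the labels do not say whether the mice carried it on one or both chromosomes.

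The spleen is held together by a capsule, trabeculae and a mesh of reticular fibres, in which fibroblasts wrap strands of collagen and basement membrane proteins. Fibrillar collagens give tensile strength. Collagen IV, laminins, nidogens and perlecan form the sheets under vessels and around reticular fibres. Small leucine-rich proteoglycans bind collagen fibrils and set their width, tenascins and other matricellular proteins alter how cells attach, and metalloproteinases and their inhibitors (the TIMPs) govern turnover. Because whole tissue was measured, fewer cells of a type and less RNA per cell cannot be told apart in any value below.

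The estimated depth was 28.32 to 32.24 M fragments per library. Zfp36 stood at 36.4 to 44.9 FPKM in wild-type and 46.1 to 57.5 FPKM in TTPΔARE spleens, without overlap (log2 difference 0.39, limma adjusted p = 0.0323). These reads do not check the deleted element, which was not measured on its own. Transcription factors of spleen mesenchyme were present, with Tcf21 at 28.04 to 48.4 FPKM. Of 13 fibroblast and pericyte markers 12 were tested, 1 was higher (Cnn1, a smooth muscle protein) and none lower. On the higher side 7 had an unadjusted p under 0.05: Cnn1, Acta2, Tagln, Myh11, Des, Cd34 and Pi16. Pdgfra (log2 0.13), Pdgfrb (0.01), Thy1 (0.004), Dpt (0.15) and Rgs5 (-0.30) did not reach it. The list's summed level was 89.5 to 113.3 FPKM in wild-type and 114.2 to 132.9 FPKM in TTPΔARE spleens. Its largest parts, as wild-type and TTPΔARE means, were Tagln (27.5 and 34.5 FPKM), Thy1 (23.4 and 23.5), Des (17.4 and 20.7) and Acta2 (14.9 and 19.4). Pdgfrb (4.06 and 4.13) and Pdgfra (2.48 and 2.78) were small parts, so the sum does not describe all genes of the list. Of 12 erythroid markers 11 were tested and 2 were higher, all 11 of them with a higher estimate at an unadjusted p under 0.05, and their summed level was 48.4 to 135.2 and 117.5 to 231.6 FPKM. Wild-type replicate 2 stood apart in liver genes: all 12 hepatocyte markers were highest there, with a sum of 125.7 FPKM, against 7.63 FPKM in TTPΔARE replicate 4 and at most 2.49 FPKM in the other spleens, and Ttr and Ambp were at 0 in 6 of the 8 spleens. Of the markers of other cell types, 2 of 10 tested endothelial genes were higher (Kdr and Esam) and 1 lower (Madcam1), 1 of 5 mesothelial (Wt1), 1 of 8 megakaryocyte (Treml1) and 1 of 8 macrophage genes (Emr1) were higher, and 2 of 7 B cell genes were lower (Cd22 and Fcer2a). T cell, adipose and pancreas markers gave 0 calls of 6, 1 and 1 tested by limma. At an unadjusted p under 0.05, 3 T cell genes were on the lower side and 1 (Cd8a) on the higher. At that level 7 of 10 endothelial, 7 of 8 megakaryocyte and 3 of 8 macrophage genes were on the higher side. The B cell genes were divided, with 5 of 7 on the lower side and 1 (Cr2, log2 0.31) on the higher. Over all tested transcripts 11.6% were on the higher side and 9.47% on the lower at that level, and limma called 2.01% higher and 1.99% lower. The part of these cells in the matrix results was not tested.

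Most matrix genes differed little between the genotypes. Of the 46 tested, 3 rose in TTPΔARE spleens (Ogn, Mfap4 and Timp3) and 2 fell (Tnn and Dcn), by limma on log2(FPKM + 0.5) with Benjamini-Hochberg adjustment over all 16608 transcripts and a threshold of 0.05. Over all tested transcripts, 2.01% were called higher and 1.99% lower, so that the members' shares of 6.52% and 4.35% rest on few genes. The groups did not overlap, with all TTPΔARE spleens higher, for 3 members (6.52%), close to the 6.53% over all transcripts. With all TTPΔARE spleens lower they did not overlap for 2 members (4.35%), against 5.99%.

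The sign was less evenly divided than the calls. The estimate was above 0 for 37 of 46 members, against 51% of all tested transcripts, and the median log2 difference was 0.15, against 0.0031 over all of them. An unadjusted p under 0.05 was reached by 13 members on the higher side, against 11.6% of all transcripts, and by 5 on the lower side, against 9.47%. Because the members were chosen with earlier results of these data known, these shares describe the list, and no test was made over it. These genes share cells and libraries, and 1 library moved the median: it was 0.10 when wild-type replicate 1 was left out and 0.21 when TTPΔARE replicate 4 was. Wild-type replicate 1 was the lowest of its group for 30 of 46 members and TTPΔARE replicate 4 the lowest of its group for 36 of 46. With the mean log2 level of the erythroid markers as a covariate the median was 0.13 and limma called no member, with 7 at an unadjusted p under 0.05. This covariate is itself tied to genotype, as all 11 tested erythroid markers had a higher estimate in TTPΔARE spleens. A call lost under it, here and below, therefore cannot tell the part of the genotype from that of the erythroid level.

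**Figure D1:**
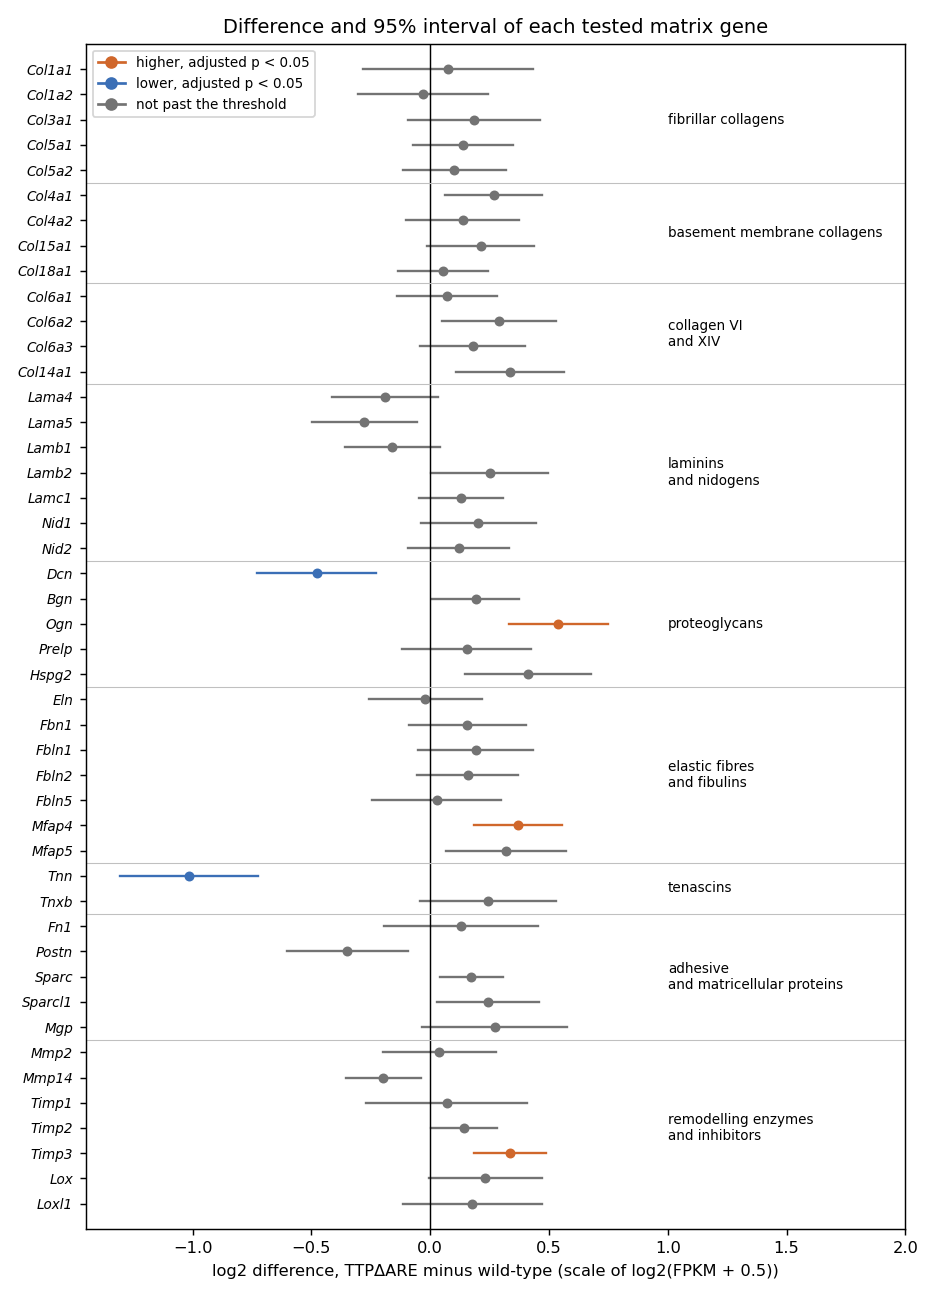
Log2 difference between TTPΔARE and wild-type spleens with its 95% interval for the 46 tested matrix genes, grouped by class, with calls at an adjusted p under 0.05 in colour. Tnn lies farthest from 0, at -1.02, and most other genes lie between 0 and 0.41.

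**Figure D2:**
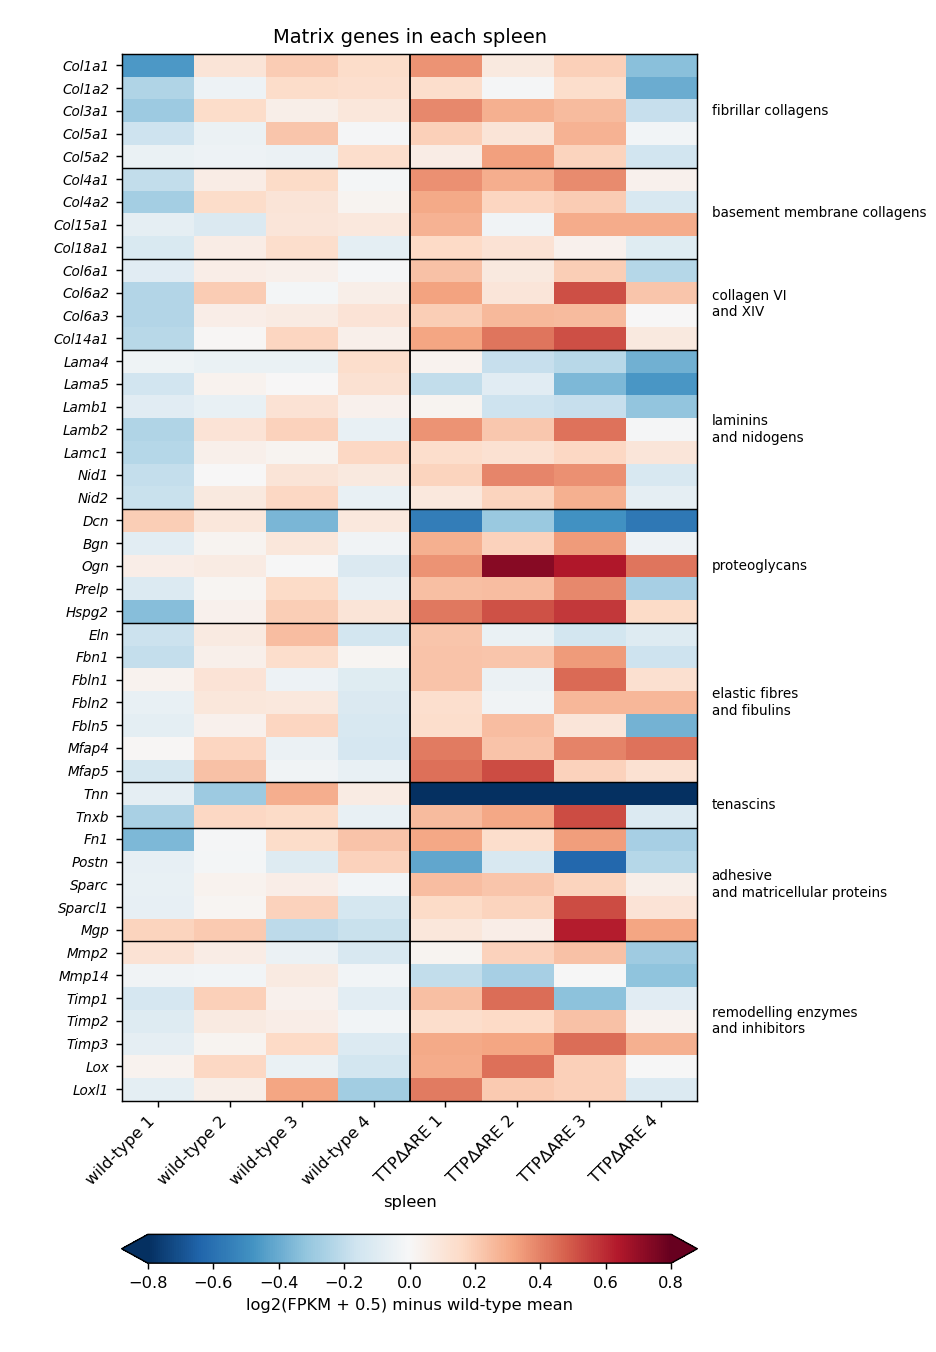
Level of each tested matrix gene in each spleen as log2(FPKM + 0.5) minus the wild-type mean, with blue below and red above it, and the ends of the colour scale at -0.8 and 0.8. The columns of wild-type replicate 1 and TTPΔARE replicate 4 are the palest or bluest of their groups in most rows, and the Tnn row is dark blue in all 4 TTPΔARE spleens.

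Fibrillar collagens, which build the load-bearing fibres, did not pass the test in either direction: 0 of 5 by limma, and 0 of 5 at an unadjusted p under 0.05. Col1a2, a chain of collagen I and the most abundant fibrillar transcript per length, stood at 18.4, 21.2, 24.2 and 24.0 FPKM in the wild-type spleens and at 24.1, 21.7, 24.1 and 16.4 FPKM in the TTPΔARE spleens. The lowest value of each group lay apart from the rest of it and the groups overlapped. The log2 difference was -0.03 with a 95% interval of -0.30 to 0.24 (adjusted p = 0.920).

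Col3a1, the collagen III chain typical of reticular fibres, had the smallest p of the class. It measured 10.1, 13.8, 12.9 and 13.3 FPKM in wild-type and 16.4, 15.2, 14.8 and 10.9 FPKM in TTPΔARE spleens. Of the TTPΔARE spleens 3 lay above every wild-type spleen, and replicate 4 lay below 3 of them (log2 0.18, limma adjusted p = 0.446). The estimate was 0.088 when wild-type replicate 1 was left out, 0.12 without TTPΔARE replicate 1 and 0.31 without TTPΔARE replicate 4, and was called in none of these fits. Col1a1, the partner chain of Col1a2, had a log2 difference of 0.07 with an interval of -0.28 to 0.43, and Col5a1 and Col5a2, collagen V chains that start fibrils, had 0.14 and 0.10. The Col1a1 to Col1a2 ratio of FPKM was 0.4997 to 0.651 in wild-type and 0.608 to 0.687 in TTPΔARE spleens, with the lowest ratio in wild-type replicate 1 and the highest in TTPΔARE replicate 1.

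Basement membrane collagens were likewise not called, 0 of 4 by limma, with 1 at an unadjusted p under 0.05. Col4a1 was the most abundant, at 14.0, 16.8, 18.03 and 16.0 FPKM in wild-type and 20.9, 19.8, 21.2 and 16.6 FPKM in TTPΔARE spleens. All TTPΔARE spleens but replicate 4 lay above the wild-type range. The log2 difference was 0.27 with an interval of 0.06 to 0.47, and the adjusted p of 0.132 missed the threshold. Col4a2 had a log2 difference of 0.14 (adjusted p = 0.517). Col15a1 and Col18a1, collagens of the zone around basement membranes, had 0.21 and 0.05.

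Col4a1 and Col4a2 lie head to head on chromosome 8, and their start regions are shown because the pair shares one. The start windows used here set the starts at 11312826 on the minus strand and at 11312805 on the plus strand, so that 22 bases are common to both. In the RefSeq gene table (GRCm38.p6) the Col4a1 gene reaches 11312889, beyond that start, so the stretch common to both genes is longer there. The start windows, 250 bases before to 50 after the start, are chr8:11312777-11313076 on the minus strand for Col4a1 and chr8:11312555-11312854 on the plus strand for Col4a2, and they overlap by 78 bases. Capitals mark a CCAAT box (CCAAT, or ATTGG on the other strand) and a GC box (GGGCGG, or CCGCCC), and both windows hold both motifs.
Col4a1: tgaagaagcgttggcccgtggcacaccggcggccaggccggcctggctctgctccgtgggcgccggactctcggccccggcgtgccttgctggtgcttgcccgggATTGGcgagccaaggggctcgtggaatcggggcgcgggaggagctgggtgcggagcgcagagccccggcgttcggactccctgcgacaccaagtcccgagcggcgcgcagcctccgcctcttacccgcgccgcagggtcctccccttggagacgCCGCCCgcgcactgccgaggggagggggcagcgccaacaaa
Col4a2: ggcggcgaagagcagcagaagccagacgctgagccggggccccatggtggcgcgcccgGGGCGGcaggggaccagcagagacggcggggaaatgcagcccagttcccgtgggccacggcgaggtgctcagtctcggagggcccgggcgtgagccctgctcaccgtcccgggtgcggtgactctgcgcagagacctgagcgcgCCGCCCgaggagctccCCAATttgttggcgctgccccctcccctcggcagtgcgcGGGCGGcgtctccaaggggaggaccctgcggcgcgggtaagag
The Col4a1 to Col4a2 ratio of FPKM was 1.26 to 1.42 in wild-type and 1.40 to 1.52 in TTPΔARE spleens, which overlap. Over the 32 members with a RefSeq start window, 19 (59.4%) held a GC box, against 35.9% of 27025 windows of the same length, 13 (40.6%) a CCAAT box, against 37.9%, and 4 (12.5%) a TATA box (TATAAA, or TTTATA on the other strand), against 14.2%. The 27025 windows were the first of each gene symbol, whether or not the gene was tested here. The 2 sets are therefore unlike, and the difference in GC box share is not specific to matrix genes. A motif match describes letters in the window and was not tied to the levels.

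**Figure D3:**
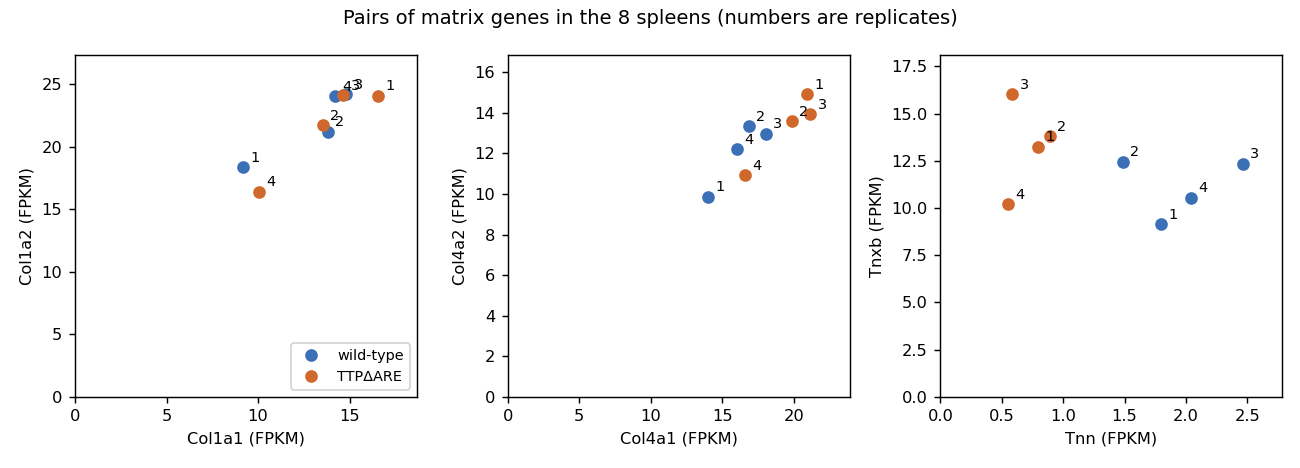
FPKM of paired matrix genes in the 8 spleens, with replicate numbers beside the points: the collagen I chains, the collagen IV chains, and the tenascins Tnn and Tnxb. In the collagen pairs the points of both groups rise together, while TTPΔARE spleens lie to the left in Tnn, below 0.9 FPKM, with Tnxb in a range that overlaps the wild-type one.

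Collagens VI and XIV, which link fibrils to cells and to each other, gave 0 calls of 4 by limma and 2 at an unadjusted p under 0.05. Col14a1, a collagen on the surface of fibrils, was the highest of these and had the smallest p. Its wild-type values were 9.29, 11.02, 12.4 and 11.3 FPKM and its TTPΔARE values 13.7, 14.9, 15.9 and 11.6 FPKM. The lowest TTPΔARE spleen, replicate 4, fell inside the wild-type range and the other 3 above it (log2 0.33, interval 0.11 to 0.56, adjusted p = 0.0971). Of the collagen VI chains, which form beaded filaments, Col6a2 had a log2 difference of 0.29 (adjusted p = 0.157), Col6a3 0.18 and Col6a1 0.07. A second Col6a3 transcript had 0.25 (limma adjusted p = 0.152).

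Laminins and nidogens, the cross-shaped glycoproteins of basement membranes and their linkers, gave 0 calls of 7 by limma, with 1 member on each side at an unadjusted p under 0.05. Nid1, which joins laminin to collagen IV, was the most abundant, at 13.8, 15.9, 17.1 and 16.8 FPKM in wild-type and 17.9, 20.9, 20.5 and 14.5 FPKM in TTPΔARE spleens. The TTPΔARE values lay both above and within the wild-type range (log2 0.20, adjusted p = 0.329). Lama5, the laminin chain of mature vessels and of lymphoid niches, measured 0.972, 1.17, 1.14 and 1.28 FPKM in wild-type and 0.927, 1.04, 0.778 and 0.683 FPKM in TTPΔARE spleens. Its groups overlapped at the wild-type replicate 1 and TTPΔARE replicate 2 values (log2 -0.28, interval -0.50 to -0.06, adjusted p = 0.144). The signs within the class were divided, with Lama4 at -0.19 and Lamb1 at -0.16 beside Lamb2 at 0.25, Lamc1 at 0.13 and Nid2 at 0.12, none called.

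Proteoglycans moved in opposite directions: of 5 tested members, Ogn rose, Dcn fell and 3 were not called. Ogn (osteoglycin), a small leucine-rich proteoglycan, stood at 1.27, 1.27, 1.20 and 1.06 FPKM in wild-type spleens and at 1.68, 2.31, 2.15 and 1.78 FPKM in TTPΔARE spleens. Every TTPΔARE spleen lay above every wild-type spleen. The mean rose 1.65-fold, from 1.20 ± 0.0969 to 1.98 ± 0.301 FPKM (mean ± SD of 4 spleens; log2 0.54, SE 0.0945, limma adjusted p = 0.0130). Leaving out TTPΔARE replicate 3 ended the call (adjusted p = 0.0517), as did an erythroid covariate (adjusted p = 0.121, log2 0.62). Ogn lies at chr13:49608015-49624501 on the plus strand, and its span overlaps that of Cenpp. Only gene spans were compared, not exons, and a part of Cenpp reads in the Ogn level was not tested.

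The Ogn start window is shown as that of the member with the clearest rise (RefSeq, chr13:49607765-49608064, plus strand), with capitals over the letters of a TATA box that reads on both strands, near the upstream end and far from the start.
Ogn: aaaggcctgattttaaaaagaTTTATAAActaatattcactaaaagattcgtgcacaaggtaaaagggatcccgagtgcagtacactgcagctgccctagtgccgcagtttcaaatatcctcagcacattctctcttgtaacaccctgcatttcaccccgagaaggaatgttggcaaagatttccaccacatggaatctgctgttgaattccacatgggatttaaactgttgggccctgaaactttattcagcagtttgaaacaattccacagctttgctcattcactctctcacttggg

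Dcn (decorin), the related proteoglycan that binds collagen fibrils and TGF-beta, went the other way. Wild-type spleens held 8.74, 8.06, 5.74 and 8.03 FPKM and TTPΔARE spleens 4.98, 6.05, 5.26 and 4.92 FPKM. Wild-type replicate 3 lay below TTPΔARE replicate 2, so the groups overlapped. The mean fell from 7.65 ± 1.31 to 5.30 ± 0.520 FPKM (mean ± SD of 4 spleens; log2 -0.48, SE 0.114, limma adjusted p = 0.0442). The call lay close to the threshold: it held when wild-type replicate 3 or TTPΔARE replicate 2 was left out, but not for any of the other 6 spleens (adjusted p from 0.0875 to 0.124), and a second Dcn transcript was not called (log2 -0.43). With an erythroid covariate the log2 difference was -0.20 (adjusted p = 0.588).

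Bgn (biglycan), the closest relative of decorin, was the most abundant matrix transcript per length. It measured 64.8, 69.9, 73.2 and 67.3 FPKM in wild-type and 83.7, 78.0, 87.1 and 66.7 FPKM in TTPΔARE spleens. Of the TTPΔARE spleens 3 lay above the wild-type range and replicate 4 within it (log2 0.19, adjusted p = 0.217). The Bgn to Dcn ratio of FPKM was 7.41 to 12.7 in wild-type and 12.9 to 16.8 in TTPΔARE spleens, without overlap by a small margin. The ratio contains the Dcn fall given above and is not a separate result. Hspg2, which encodes perlecan, the heparan sulfate proteoglycan of basement membranes, stood at 4.07 ± 0.700 and 5.55 ± 0.726 FPKM (log2 0.41, limma adjusted p = 0.0847). Prelp, a basement membrane anchor, had a log2 difference of 0.15. Lum (lumican) was under the minimum level and was not tested. It stood at 0.135 to 0.187 FPKM in wild-type and 0.0997 to 0.167 FPKM in TTPΔARE spleens, or roughly 7 to 13 fragments per library.

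**Figure D4:**
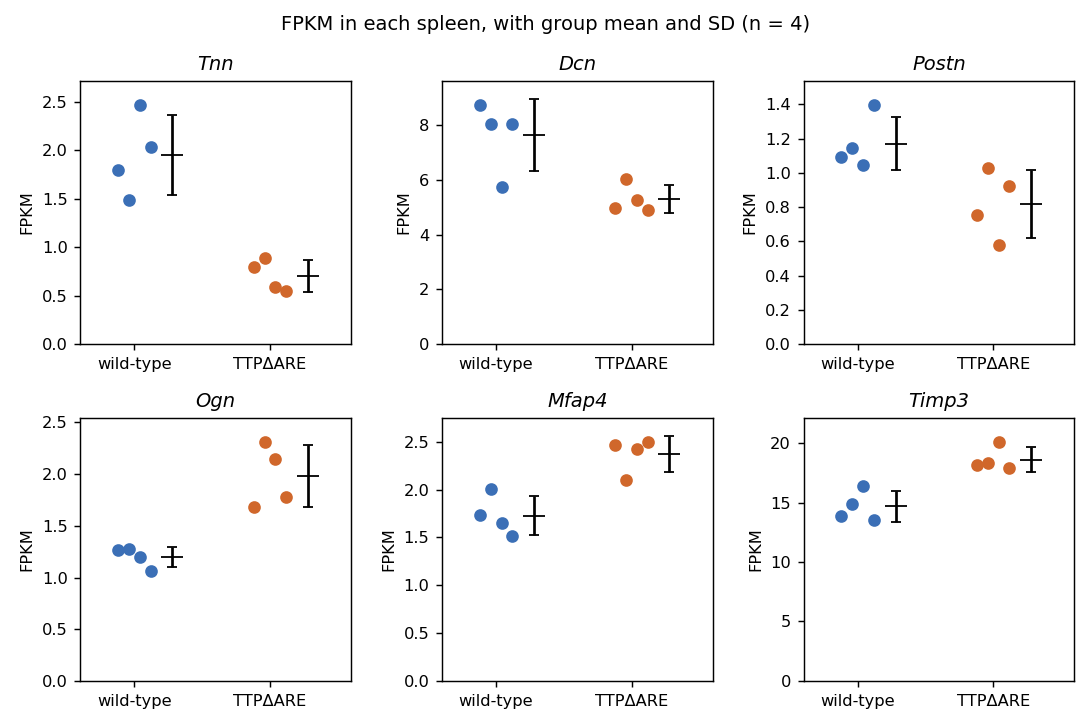
FPKM in each spleen for the 5 called matrix genes and Postn, with the group mean and SD (n = 4) beside the points. Tnn and Postn are lower and Ogn, Mfap4 and Timp3 higher in every TTPΔARE spleen than in any wild-type spleen, while 1 wild-type Dcn value, 5.74 FPKM, lies among the TTPΔARE values.

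Among elastic fibre proteins 1 of 7 tested members rose and none fell. Mfap4, a microfibril-associated glycoprotein that binds elastin and collagen, measured 1.74, 2.002, 1.65 and 1.52 FPKM in wild-type and 2.47, 2.10, 2.42 and 2.50 FPKM in TTPΔARE spleens. The groups did not overlap, with TTPΔARE replicate 2 close to wild-type replicate 2. The mean rose 1.37-fold, from 1.73 ± 0.204 to 2.37 ± 0.186 FPKM (mean ± SD of 4 spleens; log2 0.37, SE 0.0839, limma adjusted p = 0.0371). The call held when the second replicate of either group was left out, but not for any of the other 6 spleens (adjusted p from 0.0643 to 0.117). Quantile normalization also ended it (adjusted p = 0.0533), as did an erythroid covariate (adjusted p = 0.235, log2 0.42).

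Fbln5 (fibulin 5), which helps assemble elastin and was the most abundant of the class, did not pass. Its values were 6.02, 6.52, 7.25 and 5.77 FPKM in wild-type and 7.06, 7.66, 6.85 and 4.79 FPKM in TTPΔARE spleens. The TTPΔARE spleens spanned the whole wild-type range (log2 0.03, adjusted p = 0.934). Eln, elastin itself, had a log2 difference of -0.02, and Fbn1, the main microfibril protein, 0.16. Mfap5, a microfibril protein, had 0.32 (adjusted p = 0.144), Fbln1 0.19 and Fbln2 0.16.

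The largest difference of all members was in a tenascin. Tnn (tenascin N, also called tenascin W), a matricellular glycoprotein, stood at 1.80, 1.48, 2.47 and 2.04 FPKM in wild-type spleens and at 0.793, 0.894, 0.585 and 0.549 FPKM in TTPΔARE spleens. Every TTPΔARE spleen lay below every wild-type spleen with a wide gap. The mean was 1.95 ± 0.414 and 0.705 ± 0.165 FPKM (mean ± SD of 4 spleens), 2.76-fold lower in TTPΔARE spleens (log2 -1.02, SE 0.132, interval -1.31 to -0.73, limma adjusted p = 0.00493). The fold is that of mean FPKM, and the log2 difference is smaller because 0.5 FPKM was added to each value first. The call held in all 8 fits that left out 1 spleen. It was lost only with an erythroid covariate, where the estimate was log2 -1.15 (adjusted p = 0.0787). Lymphoid stroma markers were divided: 4 of 10 tested fell (Ccl21a, Cxcl13, Grem1 and Bst1), and 5 had an estimate above 0, none of them called. Those 5 were Tcf21 (log2 0.18), Nkx2-5 (0.06), Tlx1 (0.04), Nkx2-3 (0.03) and Ltbr (0.03). The list summed to 187.7 to 242.1 FPKM in wild-type and 135.3 to 187.3 FPKM in TTPΔARE spleens. Its largest parts in wild-type were Cxcl13 (mean 58.8 FPKM) and Ccl19 (53.7 FPKM). The part of these markers in the Tnn result was not tested.

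Tnn lies at chr1:160085029-160153692 on the minus strand. Its start window is shown as that of the member with the largest difference (RefSeq, chr1:160153526-160153825, minus strand), with the 1 CCAAT box, read here on the other strand as ATTGG, in capitals.
Tnn: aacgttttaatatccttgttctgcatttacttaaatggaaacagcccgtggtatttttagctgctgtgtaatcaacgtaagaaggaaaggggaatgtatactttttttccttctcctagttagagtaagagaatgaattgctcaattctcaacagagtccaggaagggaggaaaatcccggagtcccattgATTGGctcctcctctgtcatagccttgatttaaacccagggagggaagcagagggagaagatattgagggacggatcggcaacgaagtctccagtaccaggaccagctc
Tnxb (tenascin X), which binds collagen in loose connective tissue, was the most abundant tenascin, at 9.15, 12.4, 12.3 and 10.5 FPKM in wild-type and 13.2, 13.8, 16.0 and 10.2 FPKM in TTPΔARE spleens. Its groups overlapped through TTPΔARE replicate 4 (log2 0.24, adjusted p = 0.316). The Tnxb to Tnn ratio of FPKM was 5.005 to 8.39 in wild-type and 15.4 to 27.4 in TTPΔARE spleens, without overlap. This ratio likewise contains the Tnn fall. Tnc (tenascin C), a tenascin of tissue remodelling, was at 0.0674 to 0.159 FPKM in wild-type and 0.117 to 0.210 FPKM in TTPΔARE spleens, under the minimum level.

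Adhesive and matricellular proteins gave 0 calls of 5 by limma, with 2 on the higher and 1 on the lower side at an unadjusted p under 0.05. Sparc, a collagen-binding matricellular protein and the most abundant of these, stood at 59.5, 63.3, 64.2 and 61.0 FPKM in wild-type and 73.7, 72.2, 70.3 and 63.9 FPKM in TTPΔARE spleens. Replicate 4 was the one TTPΔARE spleen inside the wild-type range (log2 0.17, interval 0.04 to 0.31, adjusted p = 0.133). Postn (periostin), which binds collagen I and tenascins, had 1.09, 1.15, 1.05 and 1.40 FPKM in wild-type and 0.752, 1.03, 0.578 and 0.923 FPKM in TTPΔARE spleens. The groups did not overlap by a small margin, and the difference did not pass (log2 -0.35, adjusted p = 0.118). In the other tested Postn transcripts it was -0.05 and -0.03. Fn1 (fibronectin) had a log2 difference of 0.13, Sparcl1, a Sparc relative, 0.24, and Mgp, an inhibitor of calcification, 0.27, none called.

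Vtn (vitronectin), an adhesive plasma protein made in liver, was under the minimum level and followed the liver genes across the spleens. It measured 0.0601, 1.72, 0 and 0 FPKM in wild-type and 0.0353, 0.0196, 0 and 0.123 FPKM in TTPΔARE spleens. Wild-type replicate 2 was the highest and TTPΔARE replicate 4 the next, the same order as for Alb (albumin), with 42.2 and 1.94 FPKM there. Vtn is therefore given as values only.

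**Figure D5:**
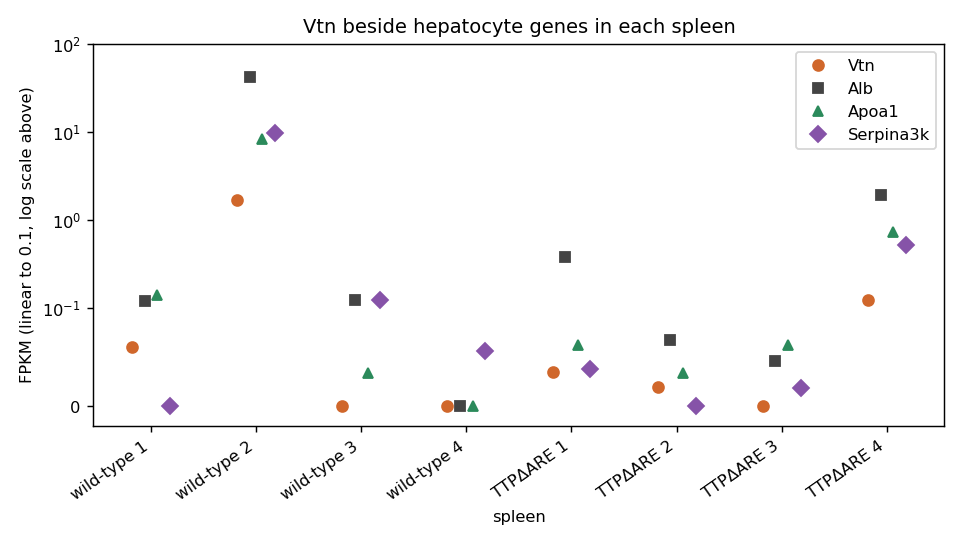
FPKM of Vtn and of the hepatocyte genes Alb, Apoa1 and Serpina3k in each spleen, on an axis that is linear to 0.1 and logarithmic above. All 4 genes peak in wild-type replicate 2, where Vtn was 1.72 FPKM, with a lower second peak in TTPΔARE replicate 4.

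Among remodelling enzymes and inhibitors 1 of 7 tested members rose and none fell. Timp3, the metalloproteinase inhibitor that stays bound to the matrix, stood at 13.9, 14.9, 16.4 and 13.5 FPKM in wild-type and 18.1, 18.3, 20.1 and 17.9 FPKM in TTPΔARE spleens. All TTPΔARE spleens lay above all wild-type spleens. The mean rose 1.27-fold, from 14.7 ± 1.28 to 18.6 ± 1.02 FPKM (mean ± SD of 4 spleens; log2 0.34, SE 0.0693, limma adjusted p = 0.0246). Leaving out the first or the fourth wild-type spleen, or the third or the fourth TTPΔARE spleen, ended the call (adjusted p from 0.0523 to 0.0901), as did an erythroid covariate (adjusted p = 0.378, log2 0.26). The span of Timp3 (chr10:86300412-86349505, plus strand) overlaps that of Syn3. Exons were not compared, and a part of Syn3 reads in the Timp3 level was not tested.

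Timp2, a soluble inhibitor that also takes part in the activation of Mmp2, was the most abundant of the class. It measured 25.6, 28.9, 28.5 and 27.1 FPKM in wild-type and 30.4, 30.8, 32.5 and 27.96 FPKM in TTPΔARE spleens, with only replicate 4 inside the wild-type range (log2 0.14, adjusted p = 0.223). Mmp14, the membrane-bound collagenase that activates Mmp2, had a log2 difference of -0.20 (adjusted p = 0.147), and Mmp2, a gelatinase, 0.04. Timp1 had 0.07 and rested on about 11.8 to 27.4 fragments per library, and its second tested transcript had -0.16, also not called. Lox and Loxl1, which cross-link collagen and elastin, had 0.23 and 0.18. The Mmp2 to Timp2 ratio of FPKM overlapped between the groups, at 0.113 to 0.145 and 0.0961 to 0.127.

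TTP binds the heptamer UAUUUAU, and its DNA form TATTTAT was counted in the longest annotated 3′ UTR of each gene (GENCODE M21). Of the 46 tested members 9 (19.6%) had at least 1, against 30.1% of 11227 tested genes, and 2 (4.35%) had at least 2, against 10.5%. The density was 0.199 per kilobase in members and 0.283 in all tested genes. Of the 5 called members only Timp3 held any, 2 in all, and Tnn, Dcn, Ogn and Mfap4 held none. Among uncalled members Col3a1 held the only nonamer (TTATTTATT). These sites are shown with 10 bases on each side and the heptamer in capitals, at chr10:86347544-86347570 and chr10:86349384-86349410 for Timp3 and chr1:45348837-45348863 for Col3a1, all on the plus strand.
Timp3 site 1: agattatgggTATTTATcctctattag
Timp3 site 2: tcctccatgtTATTTATgaattttata
Col3a1 site: aaattccagtTATTTATttccaaactt
No binding of TTP was measured, and a heptamer in a 3′ UTR is a description of its letters.

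The enzymes that make collagen were examined beside the collagens themselves, with 23 of 29 genes tested, 4 higher and none lower. For this and each further list, the share over all tested transcripts was 2.01% called higher and 1.99% lower. Pcolce2, an enhancer of procollagen cleavage, rose from 2.73 ± 0.310 to 4.52 ± 0.630 FPKM (mean ± SD of 4 spleens; log2 0.63, limma adjusted p = 0.0104). P4ha1, a subunit of the prolyl 4-hydroxylase that stabilises the triple helix, rose from 6.09 ± 0.620 to 8.58 ± 0.848 FPKM (log2 0.46, adjusted p = 0.0163), a call lost without wild-type replicate 4 (adjusted p = 0.0521) or TTPΔARE replicate 3 (0.0512). P3h2, a prolyl 3-hydroxylase, rose from 7.05 ± 0.442 to 9.17 ± 0.953 FPKM (log2 0.35, adjusted p = 0.0331), and kept its call only without the second or the third wild-type spleen or the fourth TTPΔARE spleen. Serpinh1, the collagen chaperone HSP47, had an adjusted p of 0.0490 (log2 0.34), and of the 8 fits that left out 1 spleen only the one without TTPΔARE replicate 4 kept its call. P4hb, the most abundant of the list at 55.1 and 53.7 FPKM, was not called, and the median of the list was 0.09.

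Matrix receptors gave 2 higher and none lower of 24 tested, with a median of 0.10. Itgb3, the integrin beta chain shared by platelets and vessels, rose from 9.90 ± 1.87 to 15.7 ± 1.37 FPKM (log2 0.65, limma adjusted p = 0.0121). An erythroid covariate lowered the estimate to 0.38 (adjusted p = 0.242), and megakaryocyte and platelet markers summed to 37.6 to 77.7 FPKM in wild-type and 51.1 to 90.2 FPKM in TTPΔARE spleens, whose part in this was not tested. Itga8, an integrin alpha chain of smooth muscle and fibroblasts, rose from 2.04 ± 0.315 to 3.30 ± 0.424 FPKM (log2 0.58, adjusted p = 0.0166), though not without TTPΔARE replicate 3 (0.0623). Itgb1, the common beta chain, was the most abundant, at 47.3 and 52.8 FPKM, and was not called.

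Other proteases and inhibitors gave 2 higher and none lower of 15 tested. Both are enzymes known from neutrophils: Mmp25 rose from 0.593 ± 0.0685 to 1.37 ± 0.175 FPKM (log2 0.77, limma adjusted p = 0.00403), and Mmp8, a collagenase, from 0.790 ± 0.276 to 2.49 ± 1.02 FPKM (log2 1.17, adjusted p = 0.0171), the latter not without wild-type replicate 4 (0.0573) or TTPΔARE replicate 3 (0.0629). The Mmp8 estimate was 0.66 with an erythroid covariate (adjusted p = 0.318). Of the TGF-beta pathway, which drives matrix production, 1 of 17 tested genes rose and 1 fell. Tgfbr3, the co-receptor betaglycan, rose from 6.63 ± 0.637 to 8.33 ± 0.440 FPKM (log2 0.31, adjusted p = 0.0409), and Smad7, the pathway's inhibitor, fell from 5.69 ± 0.225 to 4.46 ± 0.487 FPKM (log2 -0.32, adjusted p = 0.0389). Of the fits that left out 1 spleen, Tgfbr3 kept its call only without wild-type replicate 3, and Smad7 only without that spleen or TTPΔARE replicate 1. With an erythroid covariate the Smad7 estimate was -0.21 (adjusted p = 0.507).

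Further basement membrane genes gave 1 lower of 6 tested. Lamb3, a laminin chain of epithelia, fell from 0.733 ± 0.0999 to 0.416 ± 0.0563 FPKM (log2 -0.43, limma adjusted p = 0.0286), and it kept its call only when wild-type replicate 2, wild-type replicate 3 or TTPΔARE replicate 1 was left out. Further collagens gave 0 calls of 11 tested and further matrix proteoglycans and glycoproteins 0 of 19, with 5 and 6 genes at an unadjusted p under 0.05. Of these genes 2 and 4 were on the higher side and 3 and 2 on the lower, against 11.6% and 9.47% of all transcripts. Col27a1, a fibrillar collagen of cartilage, was the most abundant of the first list at 2.40 and 2.67 FPKM, and Tgfbi, a TGF-beta-induced adhesion protein, of the second at 30.8 and 34.7 FPKM. Over all the pathway lists 9 of 115 tested genes were higher and 2 lower, against 2.01% and 1.99% of all tested transcripts. These lists too were chosen with earlier results of these data known.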

How the data were processed

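RNA of 8 whole spleens was sequenced, 4 per genotype, grouped by the genotype in the labels. The authors deposited FPKM values per RefSeq transcript, and the submitters' processing notes name BWA and the mm10 build. Which tool counted the fragments, with which strand setting and annotation release, is not given in the sources used here. No batch is named in the labels. At the best estimated depth 39.8 to 43.4% of values up to 0.5 FPKM were whole fragments within 0.05, against 8.51 to 8.77% at other depths, so counts were not rebuilt and no count model was used. Fragment numbers given for low genes are estimates. They use GENCODE transcript lengths, which may differ from the lengths behind the FPKM.

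A minimum mean of 0.5 FPKM left 16608 of 23517 transcripts. Their log2(FPKM + 0.5) values entered limma (version 3.58.1, R 4.3.3), two-sided and with eBayes allowing a trend in the variance, and p-values were adjusted over all of them by Benjamini and Hochberg. The pseudocount of 0.5 understates changes of low genes, so their log2 differences are smaller than the folds of mean FPKM. Just inside the minimum lay Col15a1 (mean 0.550 FPKM) and Fbln2 (0.592 FPKM), and just outside it Vtn (0.245 FPKM). The fit was first run on simulated data with known changes and noise drawn independently for each spleen. Its outcome is not given here, and no result rests on it. The members, classes, pathway lists and markers were chosen with earlier results of these data known, and the hepatocyte list after its values were seen. Values in every spleen are given for called members and for the most abundant member and the one of smallest p in each class. From the pathway lists, called genes and the most abundant gene are named. Zfp36 was also tested by an exact two-sided permutation test (p = 0.0286, the smallest that 70 assignments allow). Alternatives were other pseudocounts, filters and scalings, no variance trend, FPKM summed per symbol, an erythroid covariate and leaving out spleens. Coordinates are GRCm38 (mm10). Gene spans and overlapping genes are from the RefSeq gene table, strands and 3′ UTRs from GENCODE M21, and start windows, which 32 members had, from RefSeq. Figures were drawn with matplotlib 3.10.9 in Python 3.11.15.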

Additional observations from a re-analysis of the deposited data

Results flagged for a closer look

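Of 122 groups of 4 spleens examined for members, called pathway genes and Zfp36, 8 held a spleen set far apart from the other 3 of its group by Dixon's 95% criterion, and chance flags about 1 group in 20. On the high side, wild-type replicate 4 was apart in Col5a2 (3.44 FPKM) and Lama4 (0.858 FPKM), wild-type replicate 2 in Vtn (1.72 FPKM), wild-type replicate 3 in Mmp14 (11.3 FPKM) and TTPΔARE replicate 3 in Sparcl1 (22.8 FPKM). On the low side, TTPΔARE replicate 2 was apart in Col15a1 (0.452 FPKM), wild-type replicate 3 in Tnc (0.0674 FPKM) and TTPΔARE replicate 1 in Pcolce2 (3.58 FPKM). Of these genes only Pcolce2 was called, and it was called in all 8 fits that left out 1 spleen.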

How the results depend on the processing

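Tnn was called lower under every alternative run except the erythroid covariate, and the other 4 called members each lost the call under several. Members called lower were 1 (Tnn) in place of 2 with no filter on low values, without the variance trend and with FPKM summed per symbol, and pathway genes called lower were 1 with a minimum of 1 FPKM. The erythroid covariate left 0 transcripts higher and 2 lower by limma, with 1696 at an unadjusted p under 0.05. Members and pathway genes then gave 0 calls in both directions, with 7 and 21 at an unadjusted p under 0.05, and Zfp36 stood at log2 0.29 (adjusted p = 0.417). With this covariate the sign turned for Col1a1 (-0.051), Col5a1 (-0.013) and Fn1 (-0.013), and with summed FPKM for Timp1 (-0.043). The cause was not tested.

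Leaving out 1 spleen gave 94 to 446 transcripts higher and 104 to 331 lower, 0 to 3 members higher and 1 to 2 lower, 3 to 10 pathway genes higher and 0 to 3 lower, and a Zfp36 log2 difference of 0.34 to 0.45 (adjusted p from 0.0175 to 0.108). No member was called higher without TTPΔARE replicate 3, where 198 transcripts were called, and the share called higher was 61.5% without wild-type replicate 3, against 50.2%. Of the 41 uncalled members, 25 moved by over 1.5 times when some spleen was left out, most often TTPΔARE replicate 4 (18 members) and wild-type replicate 1 (17 members). The range crossed 0 for Col1a1 (-0.079 to 0.21), Col1a2 (-0.11 to 0.091), Eln (-0.10 to 0.061), Fbln5 (-0.047 to 0.16), Mmp2 (-0.026 to 0.15) and Timp1 (-0.057 to 0.20).

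Both other alternatives were chosen after seeing the data and tested fewer spleens. Without wild-type replicate 2 and TTPΔARE replicate 4, the libraries with the most hepatocyte RNA, 90 transcripts were higher and 92 lower, 1 member higher (Ogn) and 1 lower (Tnn), 5 pathway genes higher and 0 lower, Zfp36 stood at 0.41 (adjusted p = 0.110), and Col1a2 (0.077) and Eln (0.031) turned sign. Without wild-type replicate 1 and TTPΔARE replicate 4, the lowest in collagen I, 26 transcripts were higher and 37 lower, 0 members higher and 1 lower (Tnn), 1 pathway gene higher and 0 lower, Zfp36 stood at 0.36 (adjusted p = 0.149), and Col1a2 (0.010) turned sign. In these fits 33 and 31 pathway genes and 25 and 22 members had an unadjusted p under 0.05. No paired analysis was possible because the labels give each spleen its own identifier and no number shared between the genotypes. Lum, Tnc and Vtn lay under the minimum level and were not tested, with roughly 7 to 13, 14 to 48 and 0 to 94 fragments per library.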
